A study of Mus musculus with 9 samples.

Results

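Cyclins are the regulatory subunits of cyclin-dependent kinases (CDKs). D-type cyclins drive the exit from rest, E-type cyclins the start of DNA synthesis, cyclin A2 DNA synthesis and the approach to mitosis, and B-type cyclins entry into mitosis. Their RNAs rise and fall with the cycle, so the RNA of a mixed dividing population holds all phases at once. UPF1 is an RNA helicase of nonsense-mediated mRNA decay (NMD), the pathway that removes mRNAs on which a ribosome stops in an unusual place, and its phosphorylated form (p-UPF1) marks mRNAs on which decay factors are gathering.

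The RNAs described here are those of 10 cyclin genes, Ccna2, Ccnb1, Ccnb2, Ccnd2, Ccnd3, Ccne1, Ccne2, Ccnf, Ccng1 and Ccng2, among 27179 gene identifiers in the counts. They were chosen by name, through the NCBI Gene number of each, with no threshold on a measured value. All 10 passed the filter on low counts, which kept 13129 genes. Among them, the D, E, A and B types are the cyclins of the core cycle, Ccnf encodes cyclin F, an F-box protein of an SCF ubiquitin ligase that binds no CDK, and Ccng1 and Ccng2 encode the G-type cyclins, of which Ccng1 is a p53 target and Ccng2 is known for high levels in resting or arrested cells.

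The experiment was RNA immunoprecipitation sequencing (RIP-seq), which recovers RNA together with a protein and sequences it. All 9 libraries came from spleen B cells of wild-type mice, taken as CD43- cells and activated for 72 h, which the labels give as 5 ug/mL CD40L, 10 ug/mL anti-IgM antibody and 20 ng/mL IL-4 (in the study's methods, an anti-CD40 antibody stands in place of CD40L). The p-UPF1 group held RNA pulled down by an anti-p-UPF1 antibody, the IgG group RNA pulled down by normal rabbit IgG, and the input group RNA of the lysate before precipitation, with 3 libraries in each. The labels give no strain, age or sex of the mice. The study's methods describe age-matched mice of both sexes and call the points of its graphs independent biological replicates, without saying which animals or cultures gave these libraries. If the libraries of a group shared a culture, the P values measure technical spread only.

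Total counts ranged between 19873687 and 24945286 (input), 17372510 and 18550508 (IgG), and 23251890 and 24802119 (p-UPF1). Pearson's r of log2 CPM (counts per 1000000 counts of a library) between libraries of a group rounded to 0.996 or 0.997 in input, to 0.996 in p-UPF1 and to 0.982 to 0.986 in IgG, so the IgG libraries were the most spread. Counts of B cell markers were high, with Cd79b at 1229 CPM, Ms4a1 at 725 CPM and Ighm at 4376 CPM in input against 580, 437 and 2508 CPM in p-UPF1, while 6 of the 8 T cell markers (all 3 Cd3 chains, Cd4, Cd8a and Cd8b1) were below the filter with at most 9 counts in a library. Of the 8 myeloid markers only Adgre1 passed the filter, and the list summed to 125 to 138 CPM in input, 91.0 to 99.2 CPM in IgG and 54.8 to 57.1 CPM in p-UPF1 libraries. Summed over each list, T cell markers came to 2.97 to 3.62 CPM in input, 1.38 to 3.72 CPM with IgG and 7.01 to 8.59 CPM with p-UPF1, where Cd28 was higher (Log2FC 2.32 over IgG, edgeR adjusted P = 1.98e-08). NK markers came to 3.47 to 3.84 CPM in input, 1.09 to 4.26 CPM with IgG and 2.66 to 3.35 CPM with p-UPF1. The part of these marker shifts in the results was not tested. No erythroid marker passed the filter.

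UPF1 acts where translation ends, so the stop codons of the cyclin mRNAs are shown first. Each line gives 15 bases before the stop codon, the stop codon in capitals and 12 bases after it, 5′ to 3′ on the mRNA strand, from the mouse genome with the RefSeq annotation of GRCm38.p6 (the assembly named mm10). The first 3 are of the RNAs that were lowest in p-UPF1 relative to input, and the last 3 are of the RNAs that were nearest to or above input.
Ccna2: gagacactaagtgtgTGAgtgaaagactgc
Ccnb1: gccgtgacaaaggcaTAActccaatagact
Ccnb2: ctgctgggcagccccTAGacactggactgc
Ccne1: gagcaggagacagaaTGAccaaacctgcca
Ccnf: atgcacctggcttccTGAagctcggagtgt
Ccng2: ctgtgctttccaccaTAGaggtcacatgtc

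These stop codons lie at chr3:36566234-36566236 (Ccna2, minus strand), chr13:100779678-100779680 (Ccnb1, minus), chr9:70407919-70407921 (Ccnb2, minus), chr7:38098515-38098517 (Ccne1, minus), chr17:24223898-24223900 (Ccnf, minus) and chr5:93274995-93274997 (Ccng2, plus). Over all 10 cyclins the stop codon was TGA in 5, TAG in 4 and TAA in 1. Both the low and the level RNAs used TGA and TAG.

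Features known to mark NMD substrates were counted on the RefSeq transcript used for each gene. An exon junction 50 or more bases past the stop codon was found in 0 of the 10 cyclins, against 0.294% of the 11905 tested genes with a coding transcript. An ATG upstream of the main start codon was found in 5 of 10 cyclins (Ccna2, Ccnd3, Ccne2, Ccng1 and Ccng2), against 48.5% of those genes. GENCODE M21 lists a transcript of the NMD class for 3 of 10 (Ccna2, Ccne1 and Ccnf), against 29.0%. The 3′ UTR ran from 230 bases in Ccnb2 to 4627 bases in Ccnd2, with a median of 1087 against 1015 over those genes.

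Upstream ATGs occurred in RNAs at both ends of the p-UPF1 range, as Ccng2 and Ccna2 show. The lines below give 9 bases before and after each, with the ATG in capitals. Every reading frame they open in these mRNAs ends before the main start codon.
Ccng2, first: aggagcaagATGcagccgggg
Ccng2, next: ggaggtcggATGcgggtctcg
Ccna2, first: cctcctgagATGcccggaaaa
Ccna2, next: ggttttcttATGaacactttt
Ccna2, last: caggatcctATGaggctacag

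The Ccng2 ATGs lie at chr5:93267656-93267658 and chr5:93267699-93267701 (plus strand), and open frames of 5 and 7 codons. Those of Ccna2 lie at chr3:36572920-36572922, chr3:36572872-36572874 and chr3:36572190-36572192 (minus strand), and open frames of 30, 14 and 6 codons. Ccng2 had the highest and Ccna2 the next to lowest log2 fold change (Log2FC) over input of the 10 cyclins.

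To ask which cyclin RNAs come down with p-UPF1, each was compared with IgG and with input. Levels are CPM scaled by the trimmed mean of M values (TMM-normalised CPM), given per library in the order A, B, C and as mean ± SD (n = 3). A Log2FC of 0 then means that an RNA behaved like the typical RNA of the libraries, since the yield of the precipitations is not in the files, and a low Log2FC does not mean that an RNA was missing from the precipitate. Adjusted P is that of edgeR's quasi-likelihood F test, adjusted by Benjamini and Hochberg's method over all 13129 genes.

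No cyclin was higher in p-UPF1 than in IgG, and 9 of 10 were lower, whereas 40.4% of all genes tested were higher and 42.2% lower. In p-UPF1 over input, 1 of 10 was higher (Ccng2) and 8 were lower, against 40.8% and 42.6% of all genes. The median Log2FC of the 10 was -1.0 over IgG and -0.88 over input, where that of all genes was -0.03 in both. Both comparisons use the same p-UPF1 libraries, so they are not separate evidence. Every cyclin had an edgeR Log2FC below 0 over IgG, so an unadjusted P under 0.05 could not change the count of 0 higher. DESeq2 and limma-voom also gave 0 higher.

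The study's methods define p-UPF1-bound RNAs by a Log2FC of 1 or more over IgG together with 2 or more over input, both at adjusted P under 0.05. By this rule 0 of 10 cyclins were p-UPF1-bound by edgeR's test, against 820 genes or 6.25% of those tested. No cyclin reached either fold minimum by edgeR, so unadjusted P values could not change this count. It was 0 by DESeq2 and by limma-voom as well. In the opposite direction, 5 of 10 were lower than IgG by at least 1 log2 unit (21.9% of all genes), and 2 of 10, Ccna2 and Ccnb1, were lower than input by at least 2 log2 units (9.67%). All 3 p-UPF1 libraries lay below all 3 IgG libraries for 9 of 10 cyclins (41.5% of all genes) and below all 3 input libraries for 8 of 10 (45.0%).

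**Figure D1:**
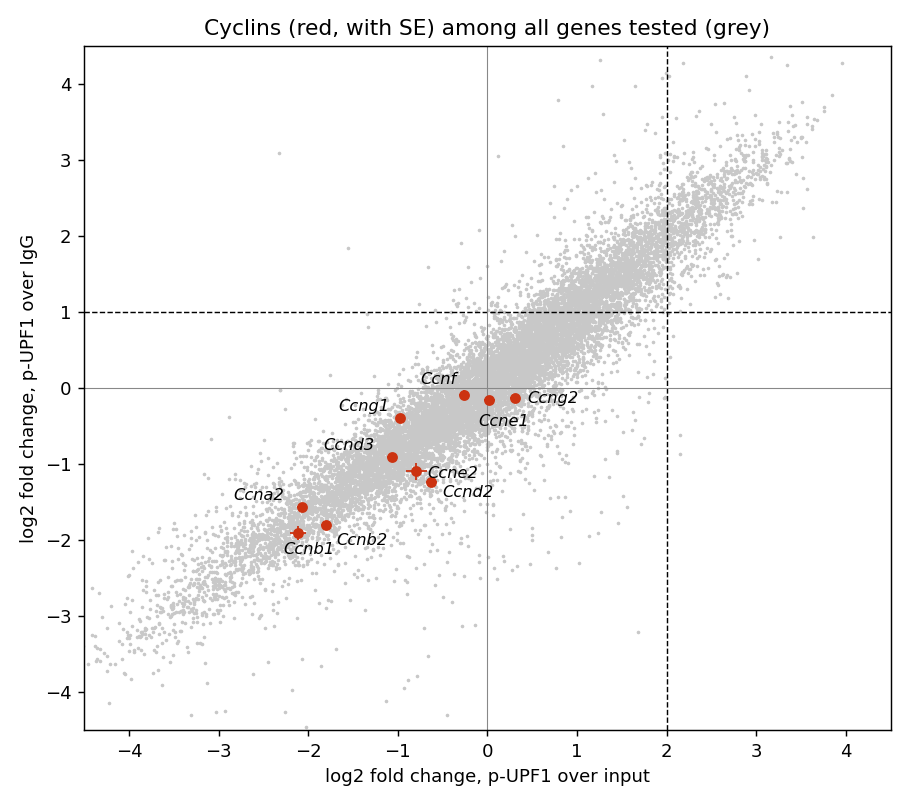
Log2FC of p-UPF1 over input (horizontal) and over IgG (vertical) for the 10 cyclins (red, with SE, mostly smaller than the points) among all genes tested (grey). Dashed lines mark the criterion of 2 over input and 1 over IgG, and 48 of 13129 genes lie outside the axes at 4.5 log2 units. No cyclin is near the upper right, and Ccna2, Ccnb1 and Ccnb2 sit apart at the lower left.

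The mitotic and S-phase cyclins were the lowest. Ccnb1 encodes cyclin B1, the main partner of CDK1 at entry into mitosis. Its level was 86.2, 91.2 and 83.7 CPM in input, 64.8, 80.5 and 79.4 CPM in IgG and 17.3, 21.8 and 21.1 CPM in p-UPF1. Every p-UPF1 library was below every other library. It was 3.74-fold lower than IgG (Log2FC -1.90, SE 0.09, edgeR adjusted P = 4.89e-12) and 4.34-fold lower than input (Log2FC -2.12, SE 0.09, edgeR adjusted P = 8.70e-13). Only 8.64% of the genes tested had a lower Log2FC over input.

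Ccnb2 encodes cyclin B2, the other mitotic B-type cyclin of these cells. Its level was 68.0, 71.5 and 70.0 CPM in input, 72.3, 69.8 and 67.4 CPM in IgG and 20.8, 20.3 and 18.9 CPM in p-UPF1. IgG and input overlapped, and the p-UPF1 libraries were below both. The Log2FC was -1.80 over IgG (SE 0.06, edgeR adjusted P = 1.91e-14) and -1.80 over input (SE 0.06, edgeR adjusted P = 1.50e-14), so the same 3.49-fold difference was measured against both controls.

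Ccna2 encodes cyclin A2, which works with CDK2 in S phase and with CDK1 later. Its level was 179, 174 and 172 CPM in input, 112, 135 and 123 CPM in IgG and 42.6, 41.0 and 41.2 CPM in p-UPF1. The 3 groups did not overlap, and IgG lay between. It was 2.97-fold lower than IgG (Log2FC -1.57, SE 0.06, edgeR adjusted P = 2.43e-13) and 4.20-fold lower than input (Log2FC -2.07, SE 0.06, edgeR adjusted P = 4.81e-15). It was also lower in IgG than in input (Log2FC -0.50, edgeR adjusted P = 1.38e-06). Of its exon bases 11.2% lie opposite exons of Exosc9, an RNA exosome gene with Log2FC -1.51 over IgG and -1.78 over input.

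The D-type cyclins bind CDK4 and CDK6 and are the first to rise when B cells are activated. Ccnd2 was by far the most counted of the 10, and took 41.7% to 42.8% of the counts of the 10 in input libraries. Its share was higher in the precipitates, at 55.3% to 59.3% with IgG and at 46.2% to 48.5% with p-UPF1. Its level was 704, 737 and 736 CPM in input, 967, 1142 and 1214 CPM in IgG and 449, 481 and 481 CPM in p-UPF1. IgG was the highest group and p-UPF1 the lowest, with no overlap. It was 2.36-fold lower in p-UPF1 than in IgG (Log2FC -1.24, SE 0.06, edgeR adjusted P = 1.34e-11) but only 1.54-fold lower than in input (Log2FC -0.63, SE 0.06, edgeR adjusted P = 9.20e-08). It was 1.53-fold higher in IgG than in input (Log2FC 0.61, SE 0.06, edgeR adjusted P = 7.19e-07). In IgG over input, 93.9% of the genes tested had a lower Log2FC than Ccnd2.

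Ccnd3 was at 52.1, 51.7 and 54.4 CPM in input, 45.4, 48.0 and 48.4 CPM in IgG and 24.7, 25.6 and 25.2 CPM in p-UPF1. The p-UPF1 libraries were again the lowest. The Log2FC was -0.91 over IgG (SE 0.06, edgeR adjusted P = 1.29e-10) and -1.07 over input (SE 0.05, edgeR adjusted P = 1.12e-11). Unlike Ccnd2, Ccnd3 was not higher in IgG than in input (Log2FC -0.16, edgeR adjusted P = 0.0191). Of its exon bases 14.3% lie opposite exons of Bysl, a ribosome biogenesis gene at Log2FC 0.26 over IgG and -0.21 over input, and if strand was not used in counting, reads of the shared stretch cannot be told apart.

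The E-type cyclins bind CDK2, and their RNAs parted in p-UPF1. Ccne1 was at 35.9, 35.7 and 35.3 CPM in input, 42.9, 37.5 and 41.1 CPM in IgG and 36, 37.4 and 35.3 CPM in p-UPF1. Input and p-UPF1 overlapped. The Log2FC over input was 0.02 (95% interval -0.10 to 0.15, edgeR adjusted P = 0.721). Over IgG it was -0.16 (95% interval -0.29 to -0.03, edgeR adjusted P = 0.0218), a call that was lost in 6 of the 19 alternative analyses, with adjusted P up to 0.163.

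Ccne2 was the least abundant of the 10, at 12.3, 12 and 12.8 CPM in input, 17.6, 13.1 and 15 CPM in IgG and 7.25, 7.27 and 6.89 CPM in p-UPF1. IgG was the most spread group, and p-UPF1 was below both others. The Log2FC was -1.09 over IgG (SE 0.11, edgeR adjusted P = 1.33e-07) and -0.79 over input (SE 0.11, edgeR adjusted P = 7.12e-06). Of its exon bases 52.3% lie opposite exons of Ints8, a subunit of the Integrator complex that was level in p-UPF1 (Log2FC 0.08 over IgG and 0.01 over input), and without strand the reads of that stretch cannot be assigned.

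Besides Ccne1, Ccnf and Ccng2 were closest to the typical RNA over both controls, while Ccng1 was not. Cyclin F marks other cell cycle proteins for destruction. Its RNA was at 51.3, 56.4 and 55.7 CPM in input, 48.3, 47.1 and 48.7 CPM in IgG and 44.2, 46.9 and 44.7 CPM in p-UPF1. The p-UPF1 libraries lay just below IgG, and the Log2FC over IgG of -0.09 did not pass the test (95% interval -0.20 to 0.03, edgeR adjusted P = 0.154). Scaling by upper quartile, by library size alone or to an input library brought that difference past the threshold, at Log2FC -0.22, -0.25 and -0.17. Over input it was lower (Log2FC -0.26, SE 0.05, edgeR adjusted P = 2.53e-04), a call that was lost in 1 of the 19 alternatives, without the low-count filter (Log2FC -0.13, edgeR adjusted P = 0.0728).

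Ccng1 was at 406, 404 and 406 CPM in input, 259, 280 and 275 CPM in IgG and 208, 206 and 203 CPM in p-UPF1. The 3 groups did not overlap. Most of its difference from input was already present in IgG. The Log2FC was -0.58 in IgG over input (SE 0.04, edgeR adjusted P = 7.41e-09), -0.98 in p-UPF1 over input (SE 0.04, edgeR adjusted P = 4.04e-13) and -0.40 in p-UPF1 over IgG (SE 0.04, edgeR adjusted P = 7.68e-08).

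Ccng2 was the only one of the 10 that was higher in p-UPF1 than in input. Its level was 95.5, 97.6 and 94.4 CPM in input, 118, 134 and 136 CPM in IgG and 121, 121 and 113 CPM in p-UPF1. The p-UPF1 libraries were above all input libraries but overlapped IgG. The Log2FC was 0.31 over input (SE 0.05, edgeR adjusted P = 5.51e-05), and it was at least as large in IgG over input, at 0.44 (SE 0.05, edgeR adjusted P = 4.82e-06). Over IgG it was -0.13 (95% interval -0.24 to -0.02, edgeR adjusted P = 0.0328), a call that was lost in 12 of 19 alternative analyses, with adjusted P up to 0.171.

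**Figure D2:**
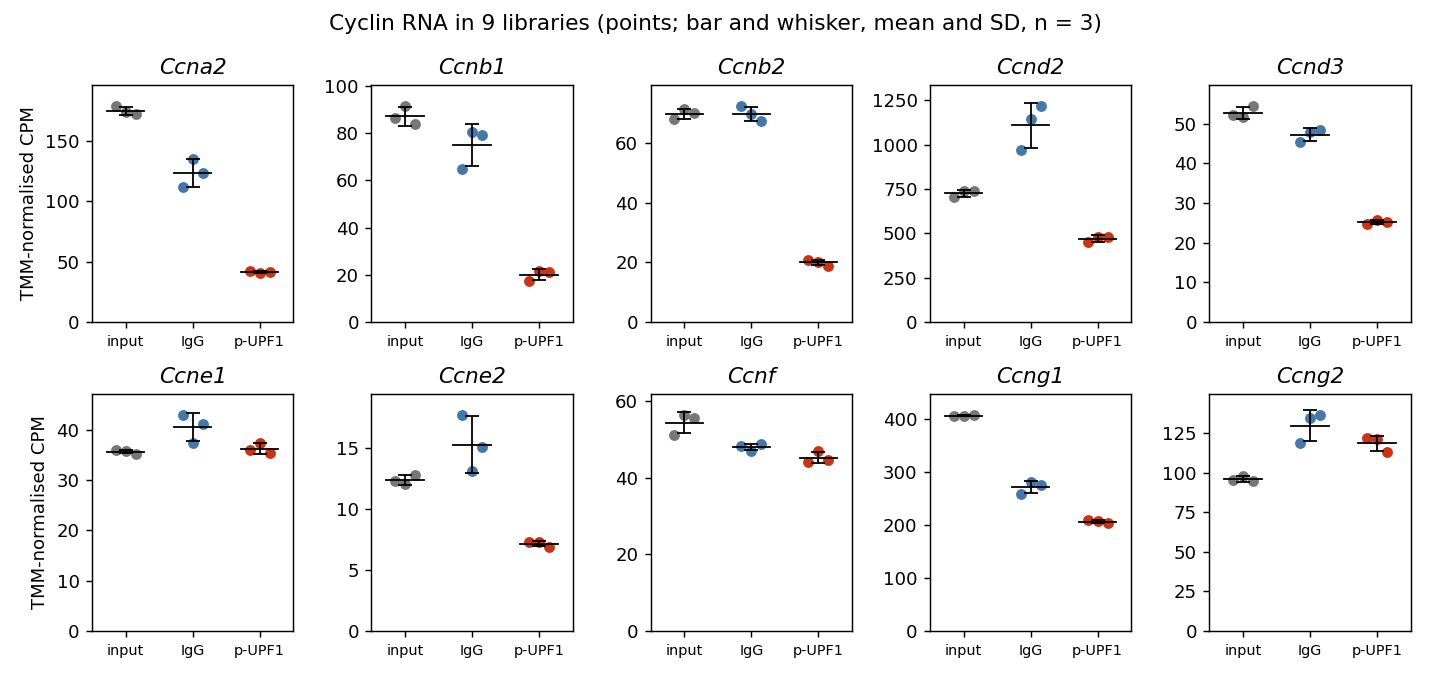
TMM-normalised CPM (vertical, from 0, each panel with its own scale) of each cyclin in the 3 input, 3 IgG and 3 p-UPF1 libraries (points), with mean and SD. The p-UPF1 libraries are the lowest of all 9 in every panel but Ccne1, where they overlap the input libraries, and Ccng2, where they lie above input.

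What came down with normal IgG was itself not even. In IgG over input, 4 of 10 cyclins were higher (Ccnd2, Ccne1, Ccne2 and Ccng2) and 5 were lower (Ccna2, Ccnb1, Ccnd3, Ccnf and Ccng1), against 18.2% and 34.7% of all genes. Ccnb2 was at Log2FC 0.00 (95% interval -0.11 to 0.11, edgeR adjusted P = 0.999). Only the calls of Ccna2, Ccnd2, Ccng1 and Ccng2 held in all 19 alternative analyses. The calls of Ccnb1, Ccnd3 and Ccnf were lost in 11, 9 and 8 of the 19, among them scaling by library size alone (Log2FC -0.10, -0.04 and -0.06), and those of Ccne1 and Ccne2 in 5 and 4, each time with 1 library left out.

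Ratios between close relatives within a library do not depend on the scaling between libraries. The 4 pairs were compared between 3 pairs of groups, 12 tests in all, by an exact two-sided permutation test, which with 3 against 3 libraries cannot give a P below 0.1. Non-overlap of the groups is therefore given as a description.

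For the E-type pair, the ratio of Ccne1 to Ccne2 counts was 2.92, 2.97 and 2.76 in input and 2.43, 2.87 and 2.74 in IgG, which overlapped. It was 4.97, 5.14 and 5.12 in p-UPF1, above all 6 others. The shift was 0.82 on the log2 scale from input and 0.93 from IgG (exact permutation P = 0.1 each, the smallest possible, adjusted P = 0.12). If strand was not used in counting, the Ccne2 counts in this ratio cannot be told apart from Ints8 over 52.3% of the Ccne2 exon bases.

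For the G-type pair, the ratio of Ccng1 to Ccng2 counts was 4.25, 4.14 and 4.30 in input, 2.18, 2.08 and 2.02 in IgG and 1.71, 1.71 and 1.80 in p-UPF1. The 3 groups did not overlap. The difference from input was -1.28 on the log2 scale in p-UPF1 and -1.01 in IgG, and that of p-UPF1 from IgG was -0.27 (exact permutation P = 0.1 each). The larger step thus lay between the lysate and either precipitate.

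For the D-type pair, the ratio of Ccnd2 to Ccnd3 counts was 13.5, 14.3 and 13.5 in input, 21.3, 23.8 and 25.1 in IgG and 18.2, 18.7 and 19.1 in p-UPF1. Here p-UPF1 lay between the others, 0.44 above input and 0.32 below IgG on the log2 scale, without overlap. For the B-type pair, the ratio of Ccnb1 to Ccnb2 was 1.27, 1.28 and 1.20 in input, 0.90, 1.15 and 1.18 in IgG and 0.83, 1.07 and 1.11 in p-UPF1. IgG and p-UPF1 overlapped as groups (exact permutation P = 0.5), and in both the lowest ratio was in library A. Between libraries with the same letter, the log2 ratio was lower in p-UPF1 than in IgG in 3 of 3, by nearly the same amount each time (-0.10, -0.10 and -0.08). An exact paired permutation test of 3 pairs gives P = 0.25, the smallest it allows.

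**Figure D3:**
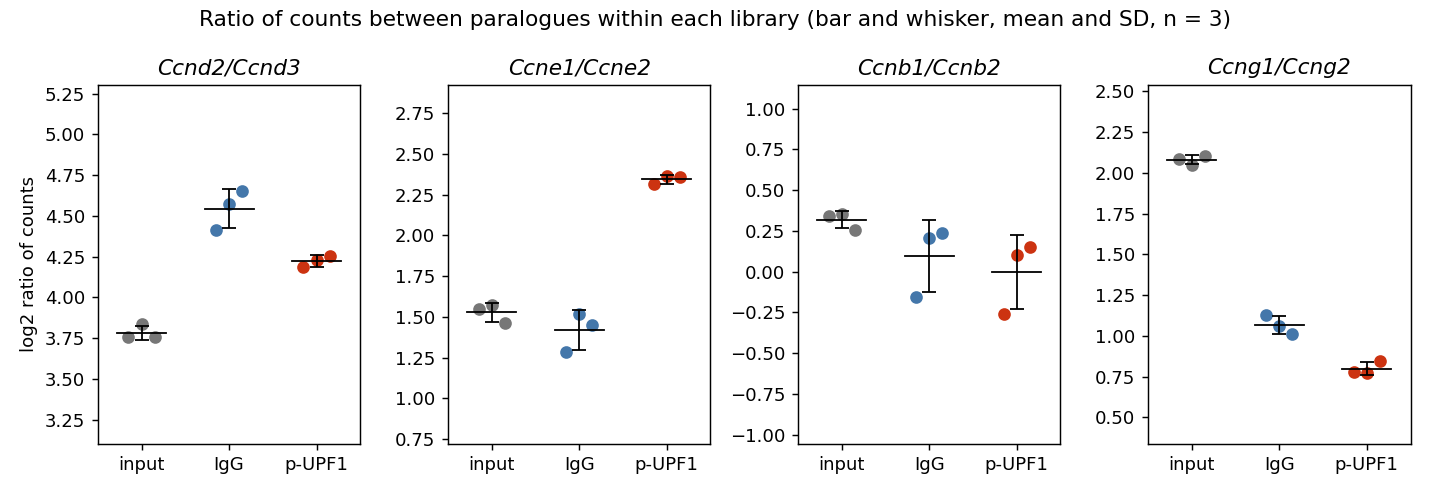
Log2 ratio of counts between related cyclins within each library (points), with mean and SD of the 3 input, IgG and p-UPF1 libraries, and panels spanning the same number of log2 units. The Ccne1/Ccne2 ratio stands apart in p-UPF1, the Ccng1/Ccng2 ratio separates input from both precipitates, and the Ccnb1/Ccnb2 ratio overlaps between IgG and p-UPF1 as groups.

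To compare levels between genes, CPM was divided by the exon length of each gene. In input, Ccng1 (116 ± 0.267 CPM per kb) and Ccnd2 (113 ± 2.94) led, and their means differed by less than the SD of Ccnd2, although their ranges did not overlap. Without TMM scaling the ranges did overlap, at 112 to 114 CPM per kb for Ccng1 and 109 to 113 for Ccnd2. Ccng1 and Ccnd2 were followed by Ccna2 (51.8 ± 0.949), Ccnb2 (45.3 ± 1.11), Ccng2 (38.4 ± 0.659) and Ccnb1 (37.6 ± 1.66), of which the last pair overlapped. Ccnd3 (21 ± 0.575), Ccne1 (18.2 ± 0.174), Ccnf (16.9 ± 0.862) and Ccne2 (3.73 ± 0.119) came last (SD, n = 3). The level of Ccne2 carries the limit of its overlap with Ints8. In these bulk samples, fewer cells of a phase and less RNA per cell cannot be told apart.

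In IgG, Ccnd2 (173 ± 19.9 CPM per kb), Ccng1 (77.2 ± 3.16) and Ccng2 (52.0 ± 3.90) came first, ahead of Ccnb2 (45.3 ± 1.61) and Ccna2 (36.6 ± 3.37). The same 3 led in p-UPF1. There Ccnd2 (73.3 ± 2.85 CPM per kb), Ccng1 (58.7 ± 0.722) and Ccng2 (47.5 ± 1.86) came first, and Ccne1 (18.5 ± 0.540) and Ccnf (14.1 ± 0.457) stood above Ccnb2 (13.0 ± 0.616), Ccna2 (12.3 ± 0.257) and Ccnb1 (8.66 ± 1.04). Ccnb2 and Ccna2 overlapped. From input through IgG to p-UPF1, Ccna2 thus stood by mean at rank 3, 5 and 7, and Ccne1 at rank 8, 7 and 4. In IgG, the range of Ccna2 overlapped that of Ccnb1, next in order, and the range of Ccne1 overlapped that of Ccnd3. The lead of Ccnd2 over Ccng1 and the rise of Ccng2 from rank 5 to rank 3 were shared by both precipitates.

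**Figure D4:**
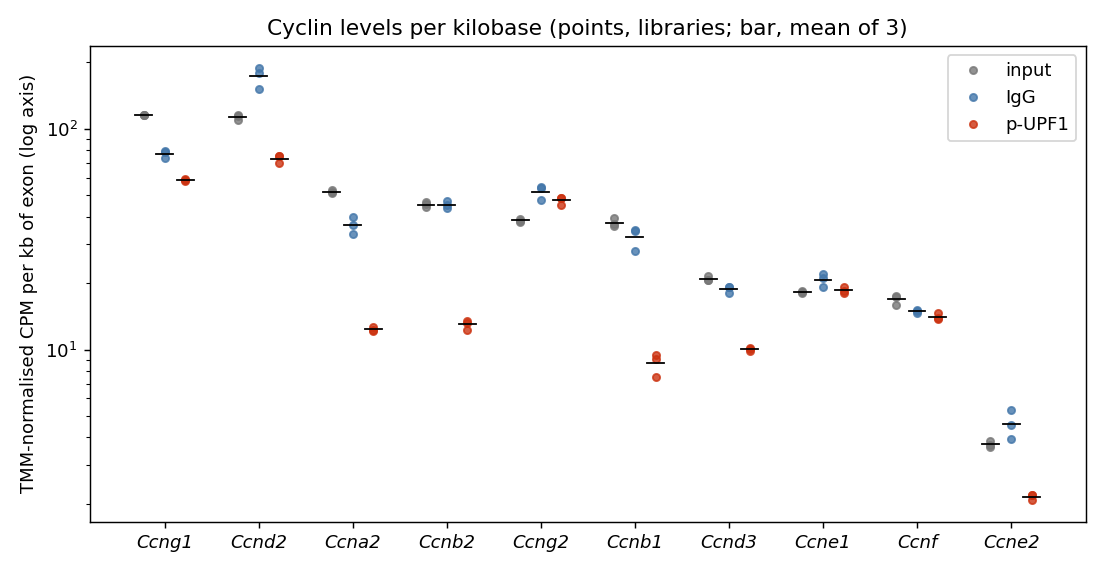
TMM-normalised CPM per kilobase of exon (vertical, log axis) of each cyclin in input, IgG and p-UPF1 libraries (points, with the mean as a bar), ordered by the input mean. Ccna2, Ccnb2 and Ccnb1 drop by more than the other cyclins in p-UPF1, while Ccne1 and Ccnf remain near their input level.

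Length and base content of the 3′ UTR were set beside the Log2FC. Across the 11905 genes, Spearman's rho of the Log2FC over input with 3′ UTR length was 0.37, and across the 10 cyclins it was 0.01. Over IgG the values were 0.36 and -0.09. With 3′ UTR GC content, rho over input was 0.27 across 11894 genes and 0.12 across the cyclins, and over IgG it was 0.31 and 0.27. These are descriptions across genes, which are not independent and share the same libraries, and whether the 10 cyclins differ from all genes in them was not tested. Ccnd2, with the longest 3′ UTR, and Ccnb2, with the shortest, were both lower in p-UPF1 than in either control. Counts of ATTTA, a motif of AU-rich elements searched on the mRNA strand of the 3′ UTR, ran from 0 in Ccnb2, Ccne1 and Ccnf to 8 in Ccng1, with 6 in Ccng2 and 7 in Ccne2, and a match is not a site of binding.

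The genes whose profile over the 9 libraries was most like that of Ccng2 and Ccnb1, the cyclins with the highest and lowest Log2FC over input, were found by the root-mean-square distance of centred log2 CPM among 8991 other genes with a mean of at least 10 CPM. Nearest to Ccng2 were Atp11b (distance 0.04 log2 units), Kif16b (0.05) and Btaf1 (0.05). Nearest to Ccnb1 were Pgk1, a glycolytic enzyme (0.05), Fh1, the fumarase of the citric acid cycle (0.07), and Dnaja1, a co-chaperone (0.08). None of the 6 is a cyclin.

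The other cyclins, many of which act in transcription rather than in the cycle, were set beside the 10. Of 17 listed, 13 were tested, and in p-UPF1 6 were higher and 5 lower than IgG and 9 higher and 3 lower than input, with a median Log2FC of 0.13 and 0.61. Of all genes, 40.4% were higher and 42.2% lower than IgG, and 40.8% and 42.6% than input, so the counts over IgG were near the background. Ccnl1, a cyclin of splicing, was the only p-UPF1-bound one (1 of 13, against 6.25% of all genes). It was at 85.7 ± 2.60 CPM in input, 112 ± 5.45 CPM in IgG libraries, and 377 ± 13.0 CPM in p-UPF1 (Log2FC 1.76 over IgG, edgeR adjusted P = 2.17e-15, and 2.14 over input, edgeR adjusted P = 2.04e-16). The lowest was Ccnh, a subunit of the CDK-activating kinase (Log2FC -2.49 over input, edgeR adjusted P = 7.12e-15). Its partner Cdk7 was lower too (Log2FC -0.68 over IgG and -0.84 over input, edgeR adjusted P = 4.34e-08 and 1.89e-09). Ccnd1, the D-type cyclin outside the 10, was scarce at 1.88 ± 0.363 CPM in input and 5.40 ± 1.40 CPM in p-UPF1 (Log2FC 1.53, edgeR adjusted P = 1.92e-04), which is opposite in direction to Ccnd2 and Ccnd3.

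The CDKs that the cyclins bind did not move as one. Cdk1, partner of cyclins A2 and B, was lower in p-UPF1 (Log2FC -1.56 over IgG, edgeR adjusted P = 1.63e-13, and -1.95 over input, edgeR adjusted P = 5.70e-15). Cdk4 was lower too (-0.80 and -1.21, edgeR adjusted P = 1.27e-11 and 4.04e-14). Cdk6 was lower than IgG (-0.76, edgeR adjusted P = 7.70e-06), and its Log2FC over input of -0.25 missed the threshold (edgeR adjusted P = 0.0511). Cdk2, partner of cyclins E and A, was higher, at 107 ± 1.46 CPM in input, 108 ± 2.58 CPM in IgG libraries, and 252 ± 3.86 CPM in p-UPF1 (1.22 over IgG, edgeR adjusted P = 2.54e-14, and 1.23 over input, edgeR adjusted P = 1.79e-14), below the criterion of 2 over input.

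Among the 8 CDK inhibitors, 3 were higher and 4 lower in p-UPF1 than in either control, near the shares of all genes (40.4% and 42.2% over IgG, 40.8% and 42.6% over input). Cdkn2b (p15), an inhibitor of CDK4 and CDK6, was p-UPF1-bound, with 10.5 ± 0.257 CPM in input, 8.72 ± 2.09 CPM in IgG libraries, and 52.9 ± 2.68 CPM in p-UPF1 (Log2FC 2.60 and 2.34, edgeR adjusted P = 9.21e-13 and 1.92e-12). Cdkn2c (p18) and Cdkn2d (p19) were higher by less, at Log2FC 1.09 and 0.48 over input (edgeR adjusted P = 5.54e-09 and 0.0122). Cdkn2a, a neighbour of Cdkn2b in the genome, was the lowest (Log2FC -2.24 over IgG and -2.81 over input, edgeR adjusted P = 7.37e-15 and 2.60e-16). Cdkn1a (p21), Cdkn1b (p27) and Cdkn3 were lower than input at Log2FC -1.25, -0.91 and -1.67 (edgeR adjusted P = 5.58e-14, 1.66e-10 and 9.56e-10), and Cdkn1c, under 1 CPM, gave -0.66 (edgeR adjusted P = 0.150).

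**Figure D5:**
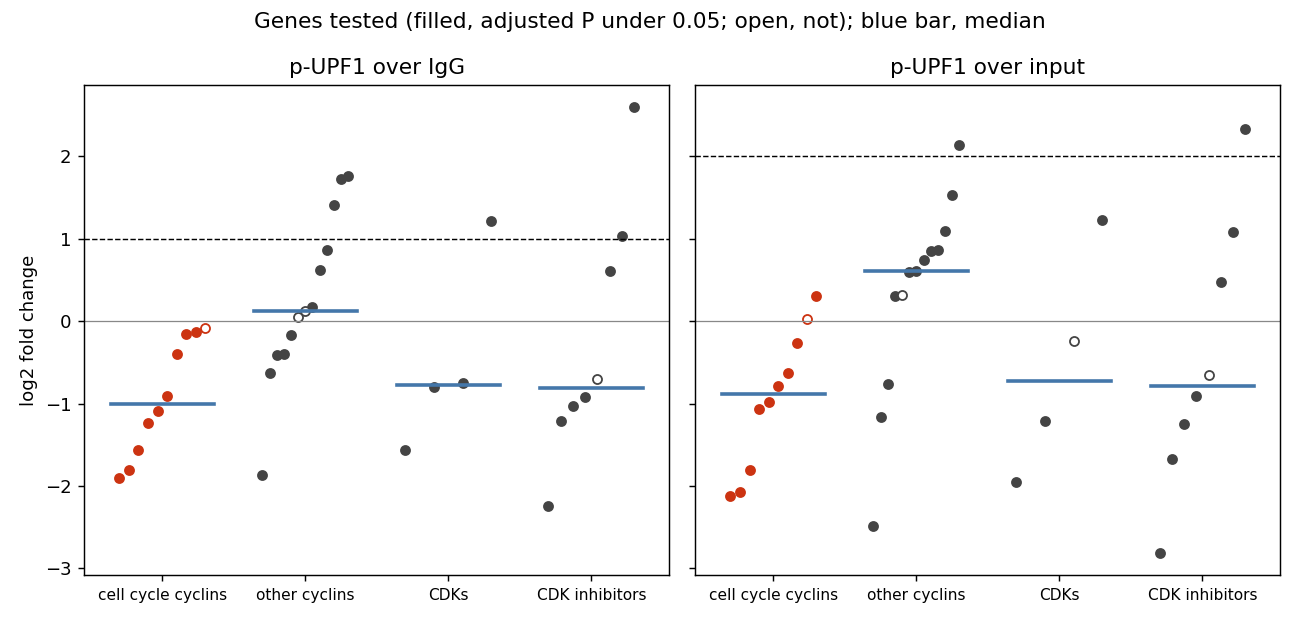
Log2FC of p-UPF1 over IgG (left) and over input (right) for the 10 cell cycle cyclins (red), 13 other cyclins, 4 CDKs and 8 CDK inhibitors (filled points, adjusted P under 0.05, open points, not), with the median of each list in blue and the criterion as a dashed line. The cell cycle cyclins have no point at or above the dashed line in either panel, and 1 other cyclin and 1 inhibitor are above it in both.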

How the data were processed

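The authors deposited raw read counts per gene, with genes as NCBI Gene numbers and 1 column per library. Per the labels, a directional kit was used and reads were processed with cutadapt, HISAT2 and featureCounts on mm10, without versions. The study's methods give HISAT2 as unstranded for its RNA-seq and do not repeat a strand setting for the RIP-seq. Counts held no molecular identifiers.

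Genes passing filterByExpr (minimum count 10, minimum total 15) numbered 13129 and held 99.9% of counts. TMM factors, the edgeR 4.0.16 quasi-likelihood test (3 groups, all 9 libraries, 6 residual degrees of freedom, two-sided) and Benjamini-Hochberg adjustment over all tested genes gave each contrast. The script was tested on simulated data. DESeq2 1.42.0 and limma 3.58.1 (voom) were alternatives, with 3 TMM references, other scalings, filters and left-out libraries. SE values follow from the test statistic. Columns carry letters and labels numbers, so columns were assigned to groups only, and the letter entered only as an alternative block and in paired differences of the ratios between cyclins. Deviations from group means over 8992 genes correlated at 0.07 to 0.20 in the 9 same-letter pairs of libraries and -0.14 to 0.03 in the 18 others. All 3 pairs were over 0.1 in each p-UPF1 comparison, so the letters were taken to pair those libraries from the data, and in IgG over input 1 pair was not. Replicates of a group differed by more than sampling noise (chi-square per degree of freedom 1.38 to 9.94) and were counted separately. Symbols came from RefSeq for 25275 of 27179 identifiers. Positions, UTRs and sequences are from RefSeq GRCm38.p6.

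The cyclins, lists and tests were chosen with earlier results of these data known. Named genes were the 10 cyclins, all CDKs and CDK inhibitors tested in the lists, the p-UPF1-bound, highest and lowest members of other lists, and the 3 nearest profiles. Ccnd1, the overlapping neighbours and some markers were added after values were seen. One B cell marker is not reported here.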

Additional observations from a re-analysis of the deposited data

How the results depend on the processing

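Of 30 log2 fold changes of the 10 cyclins (3 comparisons), each was recomputed under 19 alternatives. In these 570 values no call changed direction, 510 kept their side of the threshold, 56 were lost and 4 were gained, and the calls lost or gained had reported values of at most 0.30 log2 units. No cyclin was p-UPF1-bound under any alternative run. An adjusted P under 0.01, a prior count of 2 and a test against the fold minimum were also run. These are stricter than the main setting, so they could not have raised a count of 0. Lower cyclins over IgG numbered 7 to 10 (7 to 9 with 1 library left out, 10 by upper quartile, library size alone or an input library as TMM reference, and 7 with DESeq2, an IgG library as TMM reference or no low-count filter). Over input they numbered 8 in each alternative but no low-count filter, which gave 7. Higher cyclins over input numbered 2 with an IgG library as TMM reference, where Ccne1 passed (Log2FC 0.15, edgeR adjusted P = 0.0351). In IgG over input the lower cyclins fell from 5 to 3 with DESeq2 size factors and to 2 with upper-quartile factors, library size alone, an input or IgG library as TMM reference, no low-count filter, DESeq2, or only the groups compared, and with 1 library left out they numbered 3 to 5 and the higher ones 2 to 4 (2 without input A, B or C or IgG A, against 4). The median Log2FC of all genes moved by over 0.1 in p-UPF1 over IgG (-0.03 to -0.17 by upper quartile and -0.19 by library size alone), in p-UPF1 over input (-0.03 to 0.10 with an IgG library as TMM reference) and in IgG over input (-0.10 to 0.01 by library size alone). Ratios between paralogues moved by less than their SD, and of them only Ccnb1/Ccnb2 in p-UPF1 over IgG, whose groups overlapped, changed sign (-0.22 to 0.03 with 1 library left out, which breaks a same-letter pair, against -0.10 to -0.08 within letters). The order of levels per kilobase in input was the same in all 5 alternatives, although the ranges of Ccng1 and Ccnd2 overlapped without TMM scaling. The labels number the replicates and the count columns carry letters, so the letters were tried as a replicate block, chosen after seeing the data (4 residual degrees of freedom). All 30 values kept their call under this block, with 0 and 9 cyclins higher and lower over IgG, 1 and 8 over input and 4 and 5 in IgG over input. The least counted cyclin, Ccne2, had 152 counts in its lowest library. Counting error is smaller than the true error here, since PCR copies of a molecule were not merged.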

Other observations

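Genes that act on cyclins and CDKs through phosphate groups or destruction moved in both directions in p-UPF1. Of 9 genes of CDK phosphorylation and its partners, 1 was higher and 7 were lower than input (40.8% and 42.6% of all genes), with a median Log2FC of -0.97. The higher one was Cdc25a, a phosphatase that activates CDK2 (Log2FC 2.0 over IgG and 1.90 over input, edgeR adjusted P = 6.44e-15 and 8.89e-15), just under the criterion over input, and the lowest was Cks2, a small CDK-binding protein (Log2FC -2.93 and -3.30, edgeR adjusted P = 2.82e-13 and 3.46e-14). Of 24 genes of the ubiquitin ligases that destroy cyclins, 7 were higher and 15 lower than input (40.8% and 42.6% of all genes), with a median of -0.62. The highest was Cdc23, a subunit of the anaphase-promoting complex (Log2FC 1.78 over input, edgeR adjusted P = 7.73e-16), and the lowest was Ube2c, the E2 enzyme of that complex (-3.18, edgeR adjusted P = 3.79e-16), so genes of the same complex lay at both ends.

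Of 19 genes of the RB and E2F network, which controls cyclin transcription, 10 were higher and 5 lower than input (40.8% and 42.6% of all genes), with a median Log2FC of 0.12. Lin52, a subunit of the DREAM complex, was p-UPF1-bound, at 10.9 ± 0.815 CPM in input, 12.8 ± 2.14 CPM in IgG libraries, and 92.8 ± 1.03 CPM in p-UPF1 (SD, n = 3, Log2FC 2.86 and 3.10, edgeR adjusted P = 8.20e-15 and 2.85e-15). The lowest was E2f4 (-1.01 over input, edgeR adjusted P = 1.21e-11). All 4 proliferation markers were lower in p-UPF1 than in input (42.6% of all genes), from Top2a at Log2FC -0.25 to Pcna at -2.50. All 4 were lower than IgG as well (42.2% of all genes). In IgG over input 2 of them were higher and 1 was lower (18.2% and 34.7% of all genes). These are values, and the lists were chosen with earlier results known.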
